A study of Mus musculus with 6 samples.

Results

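The AP-1 subunits of the FOS and JUN families, with 3 related proteins of the same class, were followed across sorted mouse bone marrow cells with and without 2 nuclear receptors. The genes were Jun, Junb, Jund, Fos, Fosb, Fosl1, Fosl2, Atf3, Maff and Batf. All 10 were found on the array, out of 18193 genes named by at least 1 probe set. They are read by 14 probe sets that carry one of these symbols alone, of 45037 that are not array controls. RNA was measured on 6 Affymetrix arrays as MAS5 signal, a linear intensity per probe set. The tested arrays (DKO, 3 arrays) held cells of double knockout mice lacking Nr4a1 and Nr4a3, on a hybrid background of C57BL/6 and 129SvJ, obtained by crossing the single mutants. Wild-type arrays (WT, 3 arrays) held cells of mice with both receptors, whose strain the labels do not give, so genotype and strain background cannot be told apart. All mice were 2 to 3 weeks old and no treatment is given. Bone marrow cells were sorted as lineage-negative and Sca1-positive, and the RNA on an array came from a pool of 10 to 20 mice; errors therefore describe pools, not single mice.

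AP-1 is a dimer of basic leucine zipper (bZIP) proteins that binds DNA at short palindromic sites. JUN proteins can pair with one another or with FOS proteins, whereas FOS proteins need a JUN partner. Several of the genes are immediate early genes, switched on within minutes of a growth factor, cytokine or stress signal without new protein synthesis, and so are Nr4a1 and its relatives. In blood cells AP-1 takes part in myeloid differentiation, proliferation and the response to stress.

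Promoter sequence is shown for the members with a match to an AP-1 type site, because sites of this kind let AP-1 and ATF proteins act on AP-1 genes themselves. Of the 10 genes, 9 had 11 promoter windows among the RefSeq sequences of build GRCm38.p6, each from 250 bases before to 50 bases after a start site. Exact matches were sought on both strands for the AP-1 site TGACTCA, the cAMP response element TGACGTCA, the variant TGACATCA known from the Jun promoter, the NR4A monomer site AAAGGTCA and the CArG box bound by serum response factor. In 3 windows there was 1 match each, in capitals below, and the matches did not overlap another motif.
Jun, chr4:95052173-95052472, minus strand: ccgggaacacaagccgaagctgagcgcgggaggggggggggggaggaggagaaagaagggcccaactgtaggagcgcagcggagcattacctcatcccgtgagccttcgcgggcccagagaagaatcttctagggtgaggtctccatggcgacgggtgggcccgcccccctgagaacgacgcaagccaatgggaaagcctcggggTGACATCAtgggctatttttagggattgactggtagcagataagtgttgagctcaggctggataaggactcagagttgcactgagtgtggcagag
Maff, start site 2, chr15:79347270-79347569, plus strand: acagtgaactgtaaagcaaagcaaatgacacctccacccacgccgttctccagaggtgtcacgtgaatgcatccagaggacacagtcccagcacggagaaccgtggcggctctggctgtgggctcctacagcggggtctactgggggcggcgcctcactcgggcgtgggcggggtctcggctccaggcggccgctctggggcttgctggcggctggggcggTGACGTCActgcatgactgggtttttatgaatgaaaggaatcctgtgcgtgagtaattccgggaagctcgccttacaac
Maff, start site 3, chr15:79348152-79348451, plus strand: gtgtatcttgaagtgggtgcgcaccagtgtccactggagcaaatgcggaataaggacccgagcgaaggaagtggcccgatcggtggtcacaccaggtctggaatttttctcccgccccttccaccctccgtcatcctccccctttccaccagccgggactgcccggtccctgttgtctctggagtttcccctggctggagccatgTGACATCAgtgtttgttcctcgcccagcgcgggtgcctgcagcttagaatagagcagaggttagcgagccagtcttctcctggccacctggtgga
The variant TGACATCA began 45 bases before the start in Jun and likewise 45 bases before start site 3 of Maff. The cAMP response element began 29 bases before start site 2 of Maff. Among all 32851 windows, TGACATCA was in 3.62%, TGACGTCA in 1.79%, TGACTCA in 5.20%, AAAGGTCA in 1.51% and the CArG box in 1.63%. The other 8 windows, those of Junb, Jund, Fos, Fosb, Fosl2, Atf3, Batf and start site 1 of Maff, had none of the 5. A match is a description of these letters, and its absence covers only this window.

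Median signals lay between 91.6 and 109.5 in the DKO arrays and between 101.5 and 122.5 in the WT arrays, after the authors' scaling of each array to a trimmed mean of 500. The number of arrays limits the precision. Nr4a1 signal was 8.0, 22.4 and 33.8 in the DKO arrays against 1110.5, 1269.4 and 816.3 in the WT arrays. Nr4a3 was below the brightness filter at all of its 3 probe sets and was not tested there. One of these gave 20.9, 4.0 and 0.6 in the DKO arrays against 40.4, 61.8 and 51.5 in the WT arrays, without overlap, and at the other 2 the groups overlapped. The remaining NR4A gene, Nr4a2, fell at its brightest probe set (log2 -1.57, adjusted p = 0.0383 by limma), which did not pass with no filter on low values (adjusted p = 0.0717). Its other 5 tested probe sets did not pass, their groups overlapped, and 2 of them were higher in DKO, at 0.73 and 0.54. Of genes of stem and early progenitor cells, which the sort did not use, Kit, Cd34, Procr, Slamf1 and Flt3 were measured in both groups. Procr (log2 -1.66 ± 0.27 SE, adjusted p = 0.0111 by limma) and Flt3 (-1.54 ± 0.25, adjusted p = 0.0108 by limma) fell, where 0.633% of all 11529 genes tested did. Cd34 (-0.78 ± 0.18, adjusted p = 0.0672 by limma) and Kit (-0.60 ± 0.19, adjusted p = 0.166 by limma) were lower and did not pass. Slamf1 was higher, with overlapping groups (0.37 ± 0.38, adjusted p = 0.725 by limma). Sca1 itself, Ly6a, was not analysed here.

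Markers of other cells moved with the groups or with single pools. All 11 tested mast cell, basophil and eosinophil markers were higher in DKO and 7 of them rose, with summed signals of 27207 to 33887 in DKO and 2815 to 13686 in WT. Prg2 alone gave 14850.5 to 17484.9 of these sums in DKO and 940.8 to 9998.4 in WT. Of 11 T and NK cell markers 9 were higher and 7 rose, with summed signals of 12508 to 16707 in DKO and 4643 to 5596 in WT. In each of these lists 2 of the 7 that rose had every WT array below the brightness limit of 53.2 used for testing, and passed it through the DKO arrays, so the counts lean toward rises. Of all 11529 genes tested, 1.08% rose. Of 4 tested genes in a list of common lineage markers, chosen for this report, 1 rose. It was Cd3e, at 186 to 261 in DKO and 3.3 to 18.7 in WT, where every array was below that limit. Cd3e is also counted among the T and NK cell markers. Ptprc, Cd8a and Itgam were higher too, with overlapping groups, and did not pass. WT replicate 2 stood apart from the other WT pools, with summed signals of 82715 for 8 neutrophil markers and 40029 for 8 erythroid markers. In WT replicates 1 and 3 these were 36667 and 17462 for neutrophil markers, and 14892 and 3404 for erythroid markers. In DKO they lay between 29272 and 51106, and between 4119 and 7791. Such sums follow their brightest genes. In WT replicate 2, S100a9 gave 30915 and S100a8 22967.5 of the neutrophil sum, and Slc4a1 gave 25112 of the erythroid sum. As a mean centred log2 level over tested genes, this pool was at 1.52 for neutrophil and 1.80 for erythroid markers. Of 7 tested erythroid markers 5 were lower and 2 higher in DKO, with Gata1 at 1.27 without overlap (adjusted p = 0.0981 by limma). Summed signals of 9 B lineage markers were 1704 to 2077 in DKO, against 2471, 9169 and 2529 in WT replicates 1, 2 and 3. All 8 tested B lineage markers were lower in DKO, where 50.8% of all genes tested were. Of these 8, 2 had an unadjusted p under 0.05 and 0 passed the limma threshold. Of all genes tested, 8.65% were lower with an unadjusted p under 0.05, and 0.633% were lower and passed. For monocyte and macrophage markers the sums were 10155 to 13653 in DKO, against 9917, 25321 and 7971 in WT replicates 1, 2 and 3. Of 6 tested, 3 were lower and 3 higher in DKO, with a median of 0.15, so the list had no common direction. Only Ccr2, a chemokine receptor gene, passed, and it rose (2.32 ± 0.26, adjusted p = 0.00152 by limma). The part of these cells in the AP-1 levels was not tested, and fewer cells of a type and less RNA per cell cannot be told apart in bulk RNA.

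Of the 10 AP-1 genes, 8 had a probe set bright enough to test, with 10 tested probe sets among them. Jun fell in DKO cells at its brighter probe set, to about 0.367 of the WT level. Fosl2 and Maff had the next largest differences, -1.11 and -1.23 on the log2 scale, and did not pass the threshold. Fos and Fosb varied widely between DKO pools, and their groups overlapped. All differences are those of log2(signal + 16), DKO minus WT. The test was limma across 27022 probe sets, with Benjamini-Hochberg adjusted p under 0.05 as the threshold. In that test 152 probe sets, or 0.563%, passed and were lower in DKO, against 1 of the 10 member probe sets, that of Jun.

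**Figure D1:**
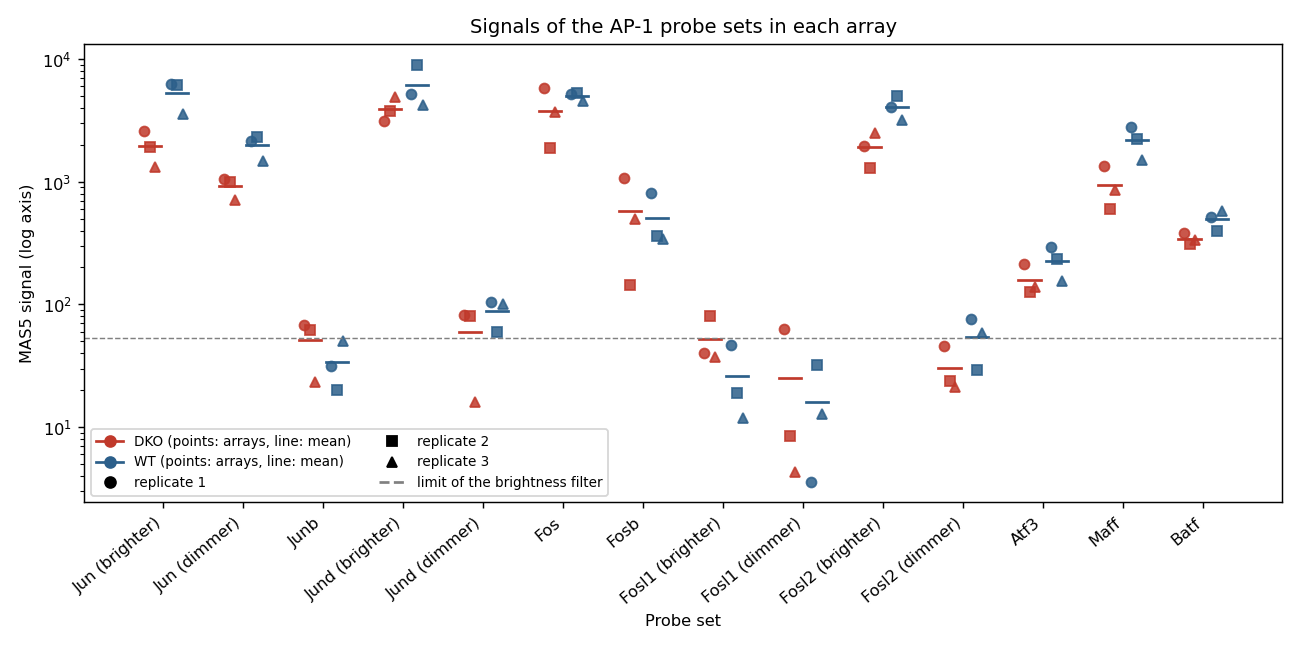
MAS5 signal on a log axis for all 14 AP-1 probe sets, with DKO arrays in red to the left of WT arrays in blue; symbols are arrays, short lines group means, and the dashed line marks the brightness limit of 53.2, which applies to the mean over arrays. Jun, the brighter Fosl2 probe set, Maff and Batf have all 3 DKO arrays below all 3 WT arrays, while Fos and Fosb of DKO replicate 1 lie above all WT arrays.

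Among the JUN proteins, Jun encodes c-Jun, the strongest activator of the family. At its brighter probe set Jun gave 2589, 1929 and 1317 in the DKO arrays, against 6214, 6175 and 3530 in the WT arrays. The highest DKO array was below the lowest WT array, and WT replicate 3 was well below the other WT pools. The log2 difference was -1.45 ± 0.28 (SE, n = 3 arrays per group; adjusted p = 0.0281 by limma), with a 95% interval from -2.06 to -0.84. This is 2.73-fold lower in DKO.

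A second Jun probe set gave 1056, 987 and 714 in the DKO arrays, against 2139, 2303 and 1483 in the WT arrays. It ordered the DKO arrays as the first did, with replicate 1 highest and replicate 3 lowest, and the groups did not overlap. Its difference of -1.08 ± 0.25 did not pass (adjusted p = 0.0650 by limma). Both probe sets read transcripts of the same gene, so they are not independent evidence. When each of the 6 arrays was dropped in turn, the brighter one passed 2 times, without DKO replicate 1 and without WT replicate 3. Its adjusted p was highest, 0.134, without WT replicate 1. It was also lost with no filter on low values (adjusted p = 0.0645) and without an intensity trend (adjusted p = 0.172).

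Junb encodes a JUN protein that restrains myeloid expansion in mice. Its probe set was dim, at 67.9, 62.0 and 23.4 in the DKO arrays and 31.4, 20.0 and 50.6 in the WT arrays. DKO replicates 1 and 2 were above all WT arrays and DKO replicate 3 was among them. It lay under the filter on low values, and in the fit of all 45037 probe sets its difference was 0.39 ± 0.51 (adjusted p = 0.842). A low MAS5 signal does not show that Junb RNA was absent, since it also depends on the probes.

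Jund encodes the JUN protein that most cells make steadily. The brighter Jund probe set gave 3127, 3756 and 4888 in the DKO arrays, against 5213, 8963 and 4224 in the WT arrays. WT replicate 2 was far above the rest, and DKO replicate 3 exceeded WT replicate 3, so the groups overlapped. The difference was -0.59 ± 0.26 with a 95% interval from -1.17 to -0.02 (adjusted p = 0.336 by limma), and it was -0.28 without WT replicate 2. The dimmer Jund probe set was at 82.1, 80.0 and 16.1 in the DKO arrays and 105.5, 59.4 and 101.0 in the WT arrays. Its difference of -0.61 ± 0.54 had an interval that spanned 0, from -1.79 to 0.57, and was -0.08 without DKO replicate 3.

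Among the FOS proteins, Fos encodes c-Fos, a strong activator whose mRNA is short-lived. Fos gave 5770, 1866 and 3685 in the DKO arrays, against 5181, 5314 and 4540 in the WT arrays. The highest and the lowest of the 6 values were both DKO pools, and the WT pools lay close together, with a largest value 1.17 times the smallest, against 3.09 times in DKO. The difference was -0.55 ± 0.32, with a 95% interval from -1.24 to 0.14 (adjusted p = 0.467 by limma). It was -0.93 without DKO replicate 1 and -0.12 without DKO replicate 2, so single pools set its size.

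Fosb encodes an inducible FOS protein that also exists as a shortened form. Fosb gave 1081, 144 and 498 in the DKO arrays, against 808, 358 and 340 in the WT arrays. As for Fos, DKO replicate 1 was the highest and DKO replicate 2 the lowest of all 6 arrays. The difference was -0.09 ± 0.59 (95% interval -1.39 to 1.20, adjusted p = 0.967 by limma). Its sign depended on single arrays: it was 0.65 without DKO replicate 2 and 0.30 without WT replicate 1. This interval leaves room for a change of more than 2-fold either way.

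Fosl2 encodes Fra-2 and Fosl1 encodes Fra-1, FOS proteins without the strong activating part of c-Fos. The brighter Fosl2 probe set gave 1938, 1304 and 2481 in the DKO arrays, against 4058, 4950 and 3198 in the WT arrays. No DKO array reached the lowest WT array. The difference was -1.11 ± 0.25 (95% interval -1.67 to -0.56), or 2.16-fold lower, and missed the threshold (adjusted p = 0.0588 by limma). It passed with the 60% dimmest probe sets left out (adjusted p = 0.0472), with quantile normalization (adjusted p = 0.0483) and with array quality weights (adjusted p = 0.0402). Over the 15 alternatives in all its adjusted p lay between 0.0402 and 0.223.

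The second Fosl2 probe set was dim, at 21.1 to 45.5 in the DKO arrays and 29.1 to 75.4 in the WT arrays, with overlapping groups, and was not tested. The 2 Fosl1 probe sets were dim as well. One lay at 37.5 to 80.3 in the DKO arrays and 11.9 to 46.8 in the WT arrays, the other at 4.3 to 62.7 and 3.6 to 31.8. Their differences in the fit of all probe sets were 0.74 ± 0.51 and 0.18 ± 0.54, with adjusted p of 0.648 and 0.948, so no direction can be given for Fosl1.

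Of the related bZIP proteins, Maff encodes a small MAF protein, which lacks an activating part and pairs with other bZIP proteins. Maff gave 1345, 599 and 855 in the DKO arrays, against 2769, 2244 and 1492 in the WT arrays. The groups did not overlap, but DKO replicate 1 and WT replicate 3 were close. The difference was -1.23 ± 0.32 (95% interval -1.93 to -0.54), or 2.35-fold lower, and did not pass (adjusted p = 0.0919 by limma). In the 15 alternatives its adjusted p ranged from 0.0590 to 0.290.

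Atf3 encodes a stress-induced factor that can repress as well as activate. Atf3 gave 214, 126 and 139 in the DKO arrays, against 296, 233 and 155 in the WT arrays. DKO replicate 1 lay among the WT pools. The difference was -0.46 ± 0.41 with a 95% interval from -1.35 to 0.42 (adjusted p = 0.656 by limma).

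Batf encodes a factor of lymphocytes and dendritic cells that pairs with JUN proteins and acts with IRF factors. Batf gave 379, 310 and 332 in the DKO arrays, against 513, 397 and 575 in the WT arrays. All DKO pools were below all WT pools, by little in the case of WT replicate 2. Its difference of -0.51 ± 0.31 did not pass (adjusted p = 0.490 by limma).

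**Figure D2:**
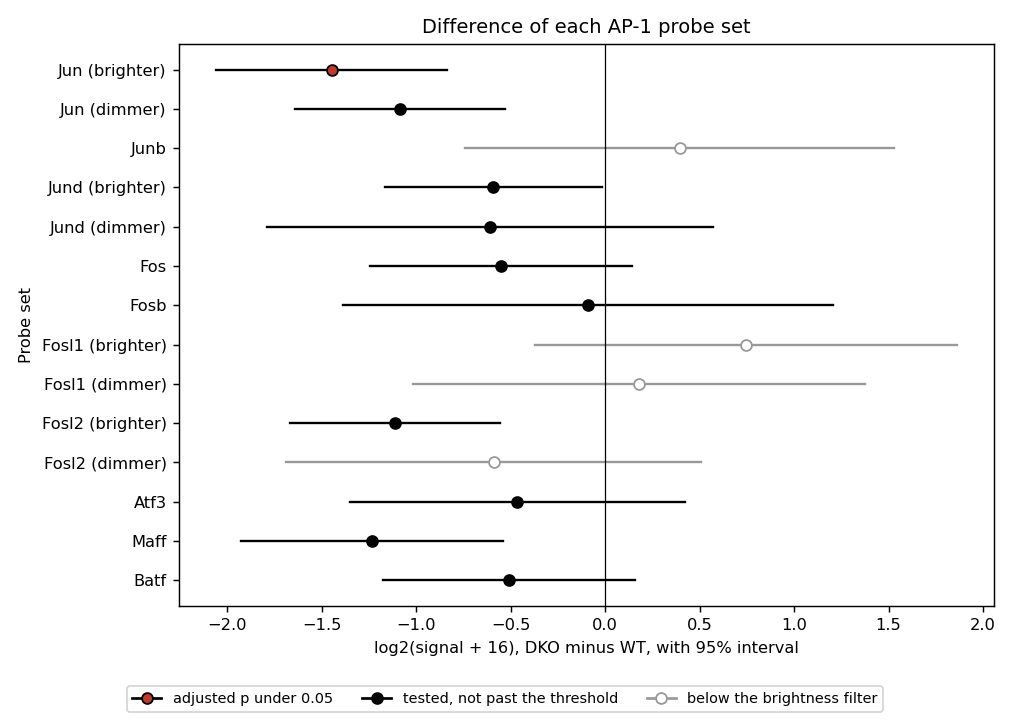
Difference of each AP-1 probe set, DKO minus WT, on the log2(signal + 16) scale with its 95% interval. The brighter Jun probe set, in red, is the 1 past the threshold, at -1.45; the 4 open grey points are below the brightness filter and come from the fit of all probe sets.

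As a description of the group, the 10 tested probe sets were all lower in DKO on the log2 scale, where 54.4% of all tested probe sets were, except that Fosb was at 0.014 when each array was centred on its median, 0.65 without DKO replicate 2 and 0.30 without WT replicate 1. In mean signal Fosb was higher in DKO, at 575 ± 473, against 502 ± 265 in WT (SD, n = 3 each). In 5 of the 10 the groups did not overlap, those of Jun (both), Fosl2, Maff and Batf, where 11.1% of all tested probe sets did so with DKO lower. An unadjusted p under 0.05 was reached by 5, those of Jun (both), Jund, Fosl2 and Maff, where 8.18% of all probe sets reached it with DKO lower. With 1 probe set per gene, the median difference of the 8 genes was -0.57, and that of all 11529 tested genes was -0.01. Junb and Fosl1 are left out of these counts because they were too dim, so they do not describe all members.

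The pools of one group differed from each other in a recurring order. Within DKO, replicate 1 was the highest for 8 of the 10 tested probe sets and replicate 2 the lowest for 6. Within WT, replicate 3 was the lowest for 8 and replicate 1 the highest for 5. Averaged over the 10 probe sets, levels relative to the mean of 6 arrays were 0.04, -0.70 and -0.49 in DKO replicates 1, 2 and 3, and 0.61, 0.44 and 0.10 in WT replicates 1, 2 and 3. DKO replicate 1 and WT replicate 3 were thus the nearest arrays of the 2 groups. Jun and Jund each entered these counts with 2 probe sets. Median signals of whole arrays were 109.5, 101.7 and 91.6 in DKO replicates 1, 2 and 3. In WT replicates 1, 2 and 3 they were 122.5, 106.1 and 101.5. The order was not counted over all probe sets, so whether it is particular to these genes was not tested.

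**Figure D3:**
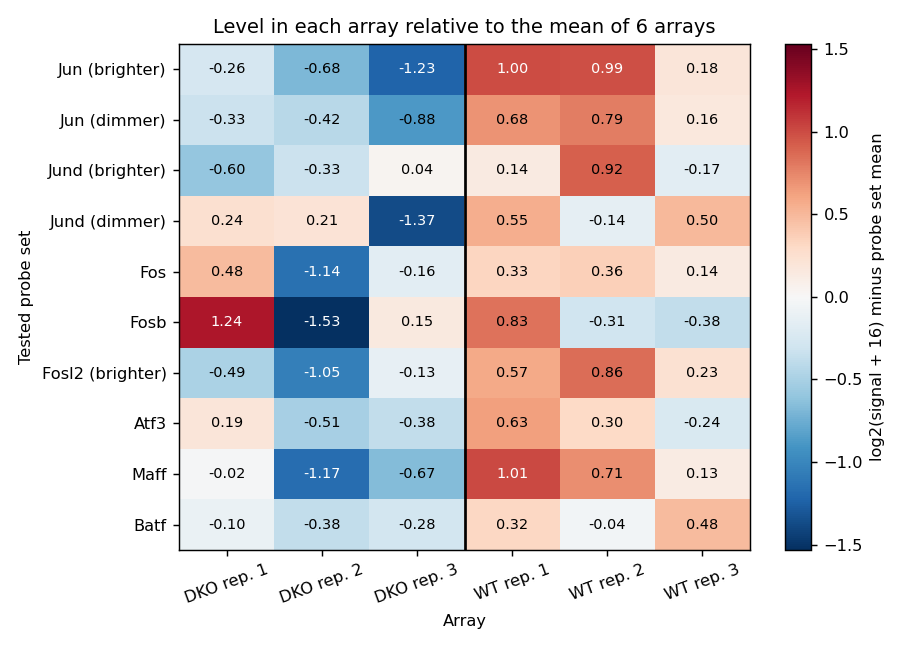
log2(signal + 16) of each tested AP-1 probe set in each array, minus its mean over the 6 arrays, with DKO arrays left of the black line and WT arrays right of it. Fos and Fosb are red in DKO replicate 1 (0.48 and 1.24) and blue in DKO replicate 2 (-1.14 and -1.53), while both Jun rows are blue in every DKO array.

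Spread within groups was set beside that of other probe sets within 0.5 log2 units of the same mean level. Fosb had a residual SD of 1.10 log2 units, above that of 99.1% of 4822 such probe sets. Fos stood at 96.5% of 1458, the brighter Jund probe set at 94.4% of 1336 and the brighter Jun probe set at 93.6% of 1813. Atf3, at 30.5%, and Batf, lower still, varied less than most probe sets of their brightness. The median over the 10 tested probe sets was 88.1%. The mean level of the heat shock and dissociation genes was -0.13, -0.06 and -0.08 in DKO replicates 1, 2 and 3 and -0.02, 0.14 and 0.16 in WT replicates 1, 2 and 3. Their part in the order of the pools was not tested.

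Within each array, Jun was set against other members. The log2 difference Jun minus Fos was -1.15, 0.05 and -1.47 in the DKO arrays, against 0.26, 0.22 and -0.36 in the WT arrays. DKO replicate 2, the array with the lowest Fos, lay among the WT arrays. The mean of this within-array difference was -0.86 in DKO and 0.04 in WT, a change of -0.90. For Jun minus Jund the change was -0.85. With 3 arrays against 3 the exact permutation test allows no p below 0.10, so these values are descriptions, and whether members changed unequally could not be shown. Junb was too dim for such a difference.

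Likeness of profiles was measured as the root mean square difference of log2 values over the 6 arrays, each profile centred on its mean. Of 11521 other genes, those nearest to Jun were Mpv17, Eno2, Snapc5, Epb41l1 and Ier2, at 0.18 to 0.22 log2 units. Ier2, itself an immediate early gene, gave 154, 82.1 and 57.5 in the DKO arrays against 237, 264 and 184 in the WT arrays. None of these 5 passed the threshold (adjusted p from 0.124 to 0.242 by limma), with differences from -1.18 for Ier2 to -1.46 for Eno2. The second Jun probe set was at 0.24 from the first, with 6 other genes nearer. Maff was at 0.34, with 39 other genes nearer, and Fosl2 at 0.51, with 417 nearer. Fos was at 0.68, with 1705 genes nearer.

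The genes nearest to Fos were 9030607L20Rik, Mier3, Car14, A930006K02Rik and Btc, at 0.12 to 0.16 log2 units. Mier3, the brightest of them, gave 836, 340 and 653 in the DKO arrays against 897, 909 and 864 in the WT arrays. The member nearest to Fos was Atf3, at 0.36, with 273 other genes nearer. Fosb was at 0.55, with 2670 nearer, its swings between pools being larger than those of Fos.

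Genes around AP-1 were followed in lists, each gene by its brightest tested probe set. Of all 11529 genes, 73 fell, or 0.633%, and 124 rose, or 1.08%. On the log2 scale 50.8% of all genes were lower in DKO. An unadjusted p under 0.05 was reached by 8.65% of all genes with DKO lower and by 7.61% with DKO higher, beside which the list counts stand. Of 32 other immediate early genes 23 were lower and 9 higher, with a median of -0.43, and 0 passed the limma threshold, while 11 lower and 2 higher ones had an unadjusted p under 0.05. Egr1, a zinc finger factor induced by the same signals, gave 6982, 4697 and 7197 in the DKO arrays, against 11604, 12838 and 7768 in the WT arrays. Its groups did not overlap and its difference was -0.76 ± 0.22 (adjusted p = 0.125 by limma). Dusp6, a phosphatase that switches off ERK, was at -0.62 ± 0.20 (adjusted p = 0.164 by limma). By array, the mean level of this list was 0.09, -0.35 and -0.14 in DKO replicates 1, 2 and 3 and 0.12, 0.39 and -0.11 in the WT replicates. DKO replicate 1 was again the highest DKO pool, and WT replicate 3 the lowest WT pool, as they also were in the median signal of the whole array.

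Other bZIP partners had no common direction, with 12 lower and 9 higher of 21 tested, a median of -0.08 and 0 past the limma threshold. At an unadjusted p under 0.05 there were 4 lower and 3 higher. The repressor gene Nfil3 was at 1.11 ± 0.32 (adjusted p = 0.125 by limma). Maf, a large MAF factor, was at 1.06 ± 0.35 (adjusted p = 0.181 by limma), opposite in sign to Maff.

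Kinases and activators upstream of AP-1, such as JNK, p38 and ERK pathway genes, had a median of -0.13 over 23 tested genes, with 0 past the limma threshold and 2 lower and 1 higher at an unadjusted p under 0.05. Mef2c, a factor that acts on the Jun promoter, was at -0.80 ± 0.21 (adjusted p = 0.101 by limma). Rps6ka3, a kinase downstream of ERK, was at 0.63 ± 0.17 (adjusted p = 0.105 by limma). Genes of AP-1 protein turnover and partners had a median of -0.07 over 15 tested, and 0 reached an unadjusted p under 0.05. This list shares Trib1 with the other immediate early genes, so that gene counts in each of them. The smallest p there were those of the coactivator gene Ncoa1 (-0.51 ± 0.30, adjusted p = 0.475 by limma) and of Smad3, a mediator of TGF-beta (-0.31 ± 0.22, adjusted p = 0.564 by limma).

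Of 27 tested genes known as AP-1 targets, 13 were lower and 14 higher, with a median of 0.06. The list also holds Egr1, through an older name, so that gene counts in both lists. At an unadjusted p under 0.05 there were 3 lower and 8 higher. Only the cytokine gene Il6 passed, and it rose. Il6 gave 410, 140 and 241 in the DKO arrays, against 1.5, 6.9 and 11.1 in the WT arrays. No DKO array came near the WT arrays, where every signal was below the limit of 53.2, so that Il6 was tested only through its DKO signals. The difference was 3.54 ± 0.51 (adjusted p = 0.00581 by limma). The offset of 16 sets its size, since the WT signals are below 16. Among 8 heat shock and dissociation genes 4 were lower and 4 higher, with a median of -0.02. All 8 encode heat shock proteins or their partners, so the list does not stand for other genes induced by dissociation. Hspa1a, below the brightness filter and not tested, gave 17.9, 0.8 and 27.6 in the DKO arrays against 50.7, 82.3 and 159 in the WT arrays. Hspb1, also not tested, had overlapping groups and a difference of 0.24. In this list 0 passed the limma threshold and 2 had an unadjusted p under 0.05, both lower in DKO. These were Hspa1b (-1.82 ± 0.51, adjusted p = 0.120 by limma) and Dnajb1 (-0.36 ± 0.12, adjusted p = 0.208 by limma), both encoding chaperones.

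**Figure D4:**
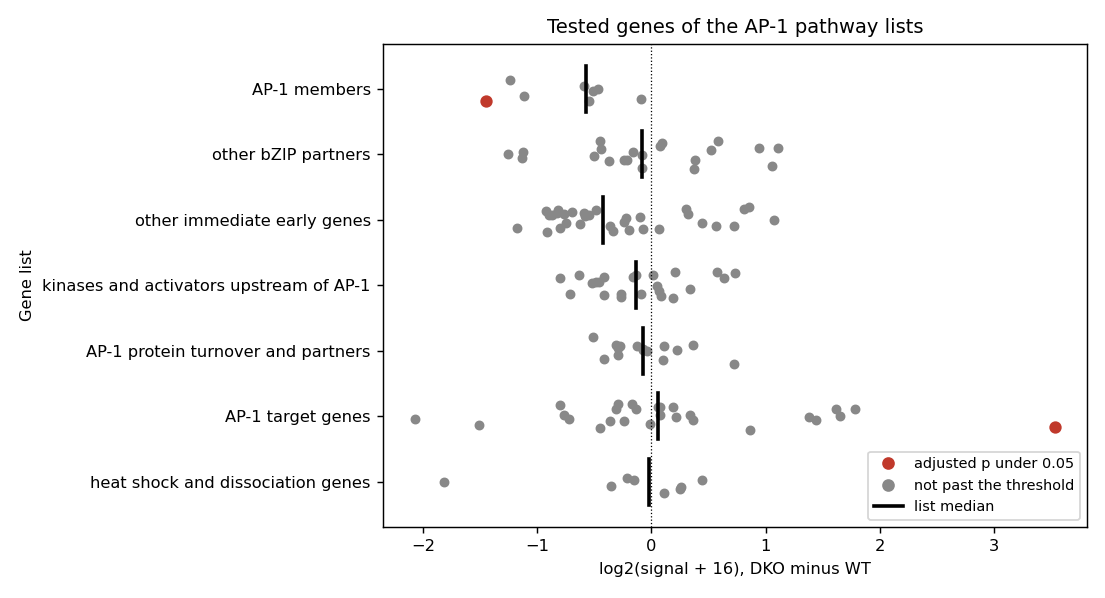
Difference of each tested gene, DKO minus WT, on the log2(signal + 16) scale, by list; dots are genes, red dots are past the threshold, and black bars are list medians. The AP-1 members lie left of 0, though Fosb, at -0.09, is right of it when arrays are centred on their medians, with a median of -0.57, other immediate early genes have a median of -0.43, and the red dot at 3.54 is Il6.

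Jun and Nr4a3 are both on chromosome 4, and Maff and Nr4a1 are both on chromosome 15, as RefSeq places them on GRCm38.p6. For these genes too, the deletions and the strain background cannot be told apart.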

How the data were processed

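The authors deposited linear intensities, MAS5 signals with a trimmed mean of 500 on each array; the submitters' processing notes name MAS5 without a version. Detection calls were not used. The genome build behind the probe annotation is not stated. Columns were matched to samples by name, and 0 columns belonged to other samples. Of 45101 probe sets, 64 controls were left out. Of the rest, 34945 have 1 symbol in the platform annotation, 932 several and 9160 none; only those with 1 symbol were named.

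Log2 values were taken after adding 16 to each signal. A filter removed the dimmest 40% by mean log2 value, a limit of about 53.2 in signal. The other 27022 entered a limma 3.58.1 fit in R 4.3.3, with moderated variances that follow intensity, DKO minus WT, two-sided, all 6 arrays and no block. Alternatives changed the added constant, the filter, the normalization, the variance trend, array weights, the block, the threshold or left out an array. Values of dimmer members come from the same fit without the filter. The added 16 shrinks fold changes of dim genes. Errors are SE unless named otherwise.

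The members and gene lists were chosen with earlier results of these data known. Named are all members, the NR4A genes, the 5 genes most like Jun and Fos in profile, and per list up to 4 genes past the threshold or else the 2 with the smallest p; cell type markers were summarised. The fit was also run on simulated arrays with independent noise for each probe set. These held no differences shared within a pool, so they do not cover such differences. Same-numbered DKO and WT pools had deviations correlated at 0.14, -0.03 and 0.05 across probe sets, so the numbers were not taken to pair them. Median centring moved the median difference of all probe sets by 0.11. Plots were made in matplotlib 3.10.9 (Python 3.11.15).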

Additional observations from a re-analysis of the deposited data

How the results depend on the processing

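Probe sets past the threshold numbered 370, 218 higher and 152 lower in DKO; with median centring they were 218 higher and 96 lower, with no filter on low values 208 in all, without an intensity trend 88, with array quality weights 563, at an adjusted p of 0.10 738, and with an array left out 104 to 469. Member probe sets past it numbered 1 in the main test and 0 to 2 with an array left out. They were 0 with no filter and 0 without an intensity trend (4 at an unadjusted p under 0.05 by limma in each), 2 with the 60% dimmest left out, 2 with quantile normalization, 2 with array quality weights and 4 at an adjusted p of 0.10. The replicate block gave 312 probe sets, among them 2 of the members, since the second Jun probe set passed (adjusted p = 0.0495); this block rests on numbers alone. Signs turned for Fosb with median centring (0.014), without DKO replicate 2 (0.65) and without WT replicate 1 (0.30), in a range of -0.74 to 0.65 with an array left out. They turned for the dimmer Fosl1 probe set without DKO replicate 1 (-0.43) and without WT replicate 1 (-0.13), in a range of -0.43 to 0.55. The other member probe sets kept their sign in the alternatives in which they were measured. The cause of these shifts was not tested. Signals near the floor limit Junb, Fosl1 and the dimmer Jund and Fosl2 probe sets.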
